A study of Mus musculus with 6 samples.

Results

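The genes described here are 10 subunits of the Polycomb repressive complexes, namely Ezh1, Ezh2, Suz12, Eed, Jarid2, Rnf2, Bmi1, Cbx2, Cbx7 and Phc1, chosen as a list of symbols from the 24393 genes counted in each library. All 10 were found and all 10 passed the filter on low counts, as did 13600 genes in all. RNA was sequenced from 6 libraries of differentiated KH2 mouse embryonic stem cells (mESC, strain given as C57/BL/6), 3 with the genotype CONTROL and 3 with the genotype HOXA13. KH2 is a line built for doxycycline-driven expression, and the HOXA13 cells carry a FLAG-tagged human HOXA13 as selected clones. The CONTROL genotype is not described further in the labels, and the study calls the cells compared with HOXA13 cultures wildtype. The protocol text, with doxycycline, is the same for all 6 samples and does not say whether CONTROL cultures were treated apart. The cells were differentiated on M15 cells, a feeder line of mesodermal origin, after maintenance on irradiated 3T3-Swiss fibroblasts. The medium of this phase had no LIF, and Noggin, CHIR, Activin-A and basic fibroblast growth factor were added. HOXA13 was induced from day 4 with 1.25 µg/ml doxycycline, cells stained for both CXCR4 and E-cadherin were isolated by flow cytometry on day 6, and RNA was taken after a further day of culture with doxycycline. The comparison asks which genes differ in these cells when HOXA13, the most 5′ gene of its cluster, is expressed.

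Polycomb proteins keep developmental genes silent, and the Hox clusters are their best known targets. Polycomb repressive complex 2 (PRC2) methylates lysine 27 of histone H3 through Ezh1 or Ezh2, which are active only in the presence of Suz12 and Eed. Polycomb repressive complex 1 (PRC1) places ubiquitin on histone H2A through Rnf2 (also called Ring1b) or Ring1 together with a Pcgf protein such as Bmi1, and its canonical form also holds a Cbx protein that reads the PRC2 mark and a Phc protein that compacts chromatin.

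The libraries held 12279884 to 17331638 counts, and the members had between 198 and 4193 counts in a library. The lowest of these, 198 counts of Ezh1, has an exact 95% Poisson interval of 171 to 228, which covers counting error only. The row of human HOXA13 was at 0 in every CONTROL library and at 2497, 7666 and 6572 counts in the HOXA13 libraries, as the labels have it. CONTROL 2 stood apart from the other CONTROL libraries, with a summed level of 20 mesenchymal and fibroblast markers of 831 CPM (counts scaled to library size) against 9091 and 6337 CPM in CONTROL 1 and 3, and 391 to 1489 CPM in the HOXA13 libraries. The 10 definitive endoderm markers summed to 140, 89.0 and 165 CPM in CONTROL against 65.0, 88.9 and 67.8 CPM in HOXA13, and of the 8 tested 4 had a log2 fold change above 0 and 4 below. Most of that sum was Eomes (24.4 to 111 CPM) and Gata6 (5.69 to 35.8 CPM), while Sox17 reached 0.975 to 4.84 CPM, Foxa2 1.76 to 5.04 CPM, and Cer1 had no count in any library. The median log2 fold change was 0.53 over genes of chromosome 1, 0.33 over those of chromosome 14 and -0.17 over those of chromosome 11, against medians between -0.05 and 0.03 on the other 17 chromosomes. In bulk RNA, fewer cells of a type and less RNA per cell cannot be told apart.

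None of the 10 members passed the test between HOXA13 and CONTROL (edgeR quasi-likelihood test, Benjamini-Hochberg adjustment over all 13600 genes, smallest adjusted p = 0.0954 for Rnf2). Across all tested genes 42 passed, or 0.309%. On simulated counts the same test called 10.3% of genes changed 2-fold, so a gene that did not pass may still differ. At an unadjusted p under 0.05 there were 3 members (Rnf2, Ezh1 and Cbx7), and 1914 genes in all. The members had a median log2 fold change of 0.07, with 5 above and 5 below 0, and all tested genes had a median of -0.01. In 2 members, Ezh1 and Rnf2, every HOXA13 library lay above every CONTROL library, where 11.5% of all tested genes did so. No member had every HOXA13 library below every CONTROL library, which 8.52% of all genes did. Other tools called more: DESeq2 called Rnf2 (5.07% of all genes tested), and limma voom with quality weights called Ezh1, Suz12 and Rnf2 (15.4%). Without CONTROL 2, edgeR called Suz12, Jarid2 and Rnf2 among 14.2% of all genes.

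**Figure D1:**
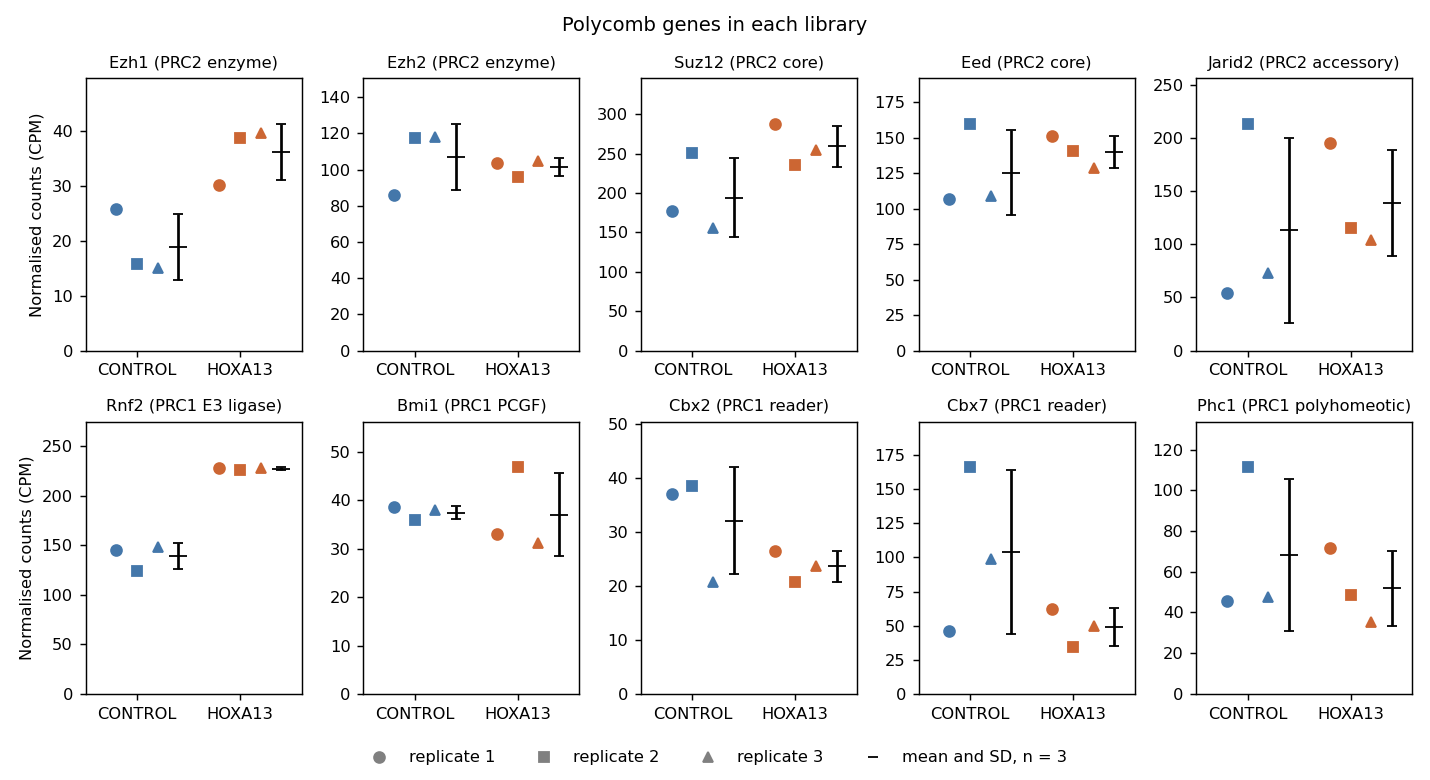
Counts scaled to library size (CPM, vertical axes, each starting at 0) of the 10 Polycomb genes in the CONTROL and HOXA13 libraries, with replicates as symbols and the mean and SD (n = 3) in black. The groups do not overlap for Ezh1 and Rnf2, and CONTROL replicate 2 is the highest of the 6 libraries for Jarid2, Cbx7, Phc1, Eed and Cbx2.

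The methyltransferases are described with stretches of their promoters, because either of the pair can be the enzyme of PRC2. Ezh2 and Suz12 hold a motif of the kind bound by E2F cell cycle factors, and Ezh1 does not. The sequences are RefSeq promoters (GRCm38.p6) located in mm9 by exact match, on the strand of each gene, 120 bases each, with the motif in capitals.
Ezh1, chr11:101087758-101087877, minus strand, ending 20 bases after the RefSeq start: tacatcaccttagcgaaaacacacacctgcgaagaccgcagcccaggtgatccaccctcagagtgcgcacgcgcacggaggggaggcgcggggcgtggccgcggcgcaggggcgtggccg
Ezh2, chr6:47545010-47545129, minus strand, ending 20 bases after the RefSeq start: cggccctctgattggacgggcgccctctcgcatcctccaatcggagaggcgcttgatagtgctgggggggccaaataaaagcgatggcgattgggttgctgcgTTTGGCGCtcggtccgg
Suz12, chr11:79806358-79806477, plus strand, the first 120 of the 250 bases before the RefSeq start: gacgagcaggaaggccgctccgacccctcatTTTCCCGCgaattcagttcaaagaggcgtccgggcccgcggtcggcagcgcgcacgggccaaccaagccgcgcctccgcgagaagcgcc

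The search covered TTTGGCGC, TTTCCCGC, TTTGCCGC and TTTCGCGC on both strands, none of which overlaps another, in windows of 300 bases. At least 1 of them was present in 744 of 32851 promoters, or 2.26%. Promoters were matched for 9 of the 10 members, and Cbx2 had none. The motif was found in Ezh2 and Suz12 and not in Ezh1, Eed, Jarid2, Rnf2, Bmi1, Cbx7 or Phc1. A match of letters is a description of the window and not a measured binding site. The member promoters held from 9 CpG pairs (Phc1) to 41 (Suz12), where the median promoter held 7.

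Ezh1, the less active methyltransferase that is typical of non-dividing cells, lies at chr11:101052429-101087777 on the minus strand (mm9, as all positions of genes here). Its level was 25.8, 15.8 and 15 CPM in CONTROL 1, 2 and 3 against 30.2, 38.7 and 39.5 CPM in HOXA13 1, 2 and 3. All HOXA13 libraries were above all CONTROL libraries, with CONTROL 1 the nearest. The mean of 36.1 ± 5.15 CPM in HOXA13 compared with 18.9 ± 6.02 CPM in CONTROL (SD, n = 3). The log2 fold change of 0.94 (SE 0.28) did not pass the test (adjusted p = 0.186). With limma voom the log2 fold change was 1.08 and the adjusted p 0.0148. The genes of chromosome 11 had a median deviation of 0.38 from their 6-library means in CONTROL 1 on the log2 scale, and of -0.12 to -0.03 in the other libraries. With the chromosome medians removed the log2 fold change of Ezh1 was 1.11 (adjusted p = 0.110).

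Ezh2, the main methyltransferase of dividing cells, lies at chr6:47480273-47545340 on the minus strand. It was at 86.2, 117 and 118 CPM in CONTROL 1, 2 and 3 against 104, 96.0 and 105 CPM in HOXA13 1, 2 and 3. The HOXA13 libraries lay within the range of the CONTROL libraries. Its log2 fold change was -0.08 (SE 0.17, adjusted p = 0.893).

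Suz12, the scaffold on which PRC2 assembles, lies at chr11:79806608-79847625 on the plus strand. It was at 177, 251 and 155 CPM in CONTROL against 288, 236 and 254 CPM in HOXA13, replicates 1 to 3 in each. CONTROL 2 lay among the HOXA13 libraries, and CONTROL 1 and 3 lay below all of them. Its log2 fold change was 0.42 (SE 0.21, adjusted p = 0.423). It was 0.63 (adjusted p = 0.0285) without CONTROL 2 and 0.26 (adjusted p = 0.798) without CONTROL 3. Exons of Ezh2 and Suz12 share 174 and 178 bases with the antisense genes Gm17629 and Gm16706, and the strand setting of the counting is not given in the sources used here.

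Eed, which binds trimethylated lysine 27 and stimulates the enzyme, lies at chr7:97103166-97129493 on the minus strand. It was at 107, 160 and 109 CPM in CONTROL against 151, 140 and 128 CPM in HOXA13. As with Suz12, CONTROL 1 and 3 were below the HOXA13 libraries and CONTROL 2 was not. For Eed the log2 fold change was 0.16 (SE 0.20, adjusted p = 0.786), with 0.36 without CONTROL 2, 0.03 without CONTROL 1 and 0.05 without CONTROL 3.

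Jarid2, an accessory subunit that brings PRC2 to its targets and is abundant in embryonic stem cells, lies at chr13:44824843-45017012 on the plus strand. It was at 54.3, 213 and 72.6 CPM in CONTROL against 196, 116 and 104 CPM in HOXA13. CONTROL 2 and HOXA13 1 were the highest, and CONTROL 1 and 3 the lowest, a range of 3.93-fold over the 6 libraries. The log2 fold change of 0.29 (SE 0.50) did not pass the test (adjusted p = 0.856). It was -0.07 without CONTROL 1, -0.06 without HOXA13 1 and 1.11 (adjusted p = 0.0323) without CONTROL 2. The summed level of 12 pluripotency markers had the same pair of libraries at the top, with 1532 CPM in CONTROL 2 and 852 CPM in HOXA13 1, then 535 CPM in HOXA13 3, 533 CPM in HOXA13 2, 272 CPM in CONTROL 3 and 201 CPM in CONTROL 1. The part of these cells in the level of Jarid2 was not tested.

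Of the 5 further PRC2 accessory genes, 3 (E130012A19Rik, Phf19 and Mtf2) were highest in CONTROL 2, second in HOXA13 1 and lowest in CONTROL 1 and 3, as Jarid2 was, and Aebp2 and Phf1 were not. The elongin-binding subunit Epop, counted as E130012A19Rik, was at 56.8, 221 and 74.2 CPM in CONTROL against 148, 102 and 94.8 CPM in HOXA13. Phf19, which binds methylated lysine 36, was at 2.84, 14.5 and 1.72 CPM in CONTROL against 12.4, 6.56 and 6.37 CPM in HOXA13. Phf1 was at 25.5, 28.7 and 21.8 CPM in CONTROL against 24.8, 21.7 and 16.6 CPM in HOXA13, and the values of Aebp2, which was lowest in CONTROL 1 and 2, are given with the further Polycomb genes. Epop, Phf19, Mtf2 and Phf1 are named here after their values were seen. The genes most like Jarid2 among 10715 candidates with a mean of at least 5 CPM were 1110038B12Rik (r = 0.998), Fam133b (r = 0.998) and Cth (r = 0.997), by Pearson's r of log2 CPM over 6 libraries that share their group and depth.

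Compared per kilobase of the longest coding transcript, Eed, Suz12 and Ezh2 were more abundant than Ezh1 in every library. In CONTROL the mean levels were 60.7 ± 14.5 CPM per kb for Eed, 44.4 ± 11.4 for Suz12, 40.4 ± 6.85 for Ezh2, 18.9 ± 14.5 for Jarid2 and 4.49 ± 1.43 for Ezh1. In HOXA13 they were 67.8 ± 5.48, 59.3 ± 6.00, 38.3 ± 1.85, 23.1 ± 8.30 and 8.59 ± 1.23 CPM per kb in the same order of genes. The means of Suz12 and Ezh2 in CONTROL were closer to each other than their SDs. Ezh1 made up 15.9%, 7.85% and 7.42% of the summed per-kilobase level of Ezh1 and Ezh2 in CONTROL 1, 2 and 3, and 15.5%, 20.3% and 19.2% in HOXA13 1, 2 and 3. CONTROL 1 and HOXA13 1 were alike in this share, and the other libraries fell apart by group. The sum itself ranged from 38.6 CPM per kb in CONTROL 1 to 49.0 CPM per kb in HOXA13 3. The ratio of Ezh2 to Ezh1 was 5.29, 11.7 and 12.5 in CONTROL against 5.45, 3.94 and 4.21 in HOXA13, a log2 difference of -1.03 (exact permutation test, two-sided, p = 0.2, adjusted p = 0.4 over 6 ratios). With 3 libraries against 3 such a test cannot go below 0.1.

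**Figure D2:**
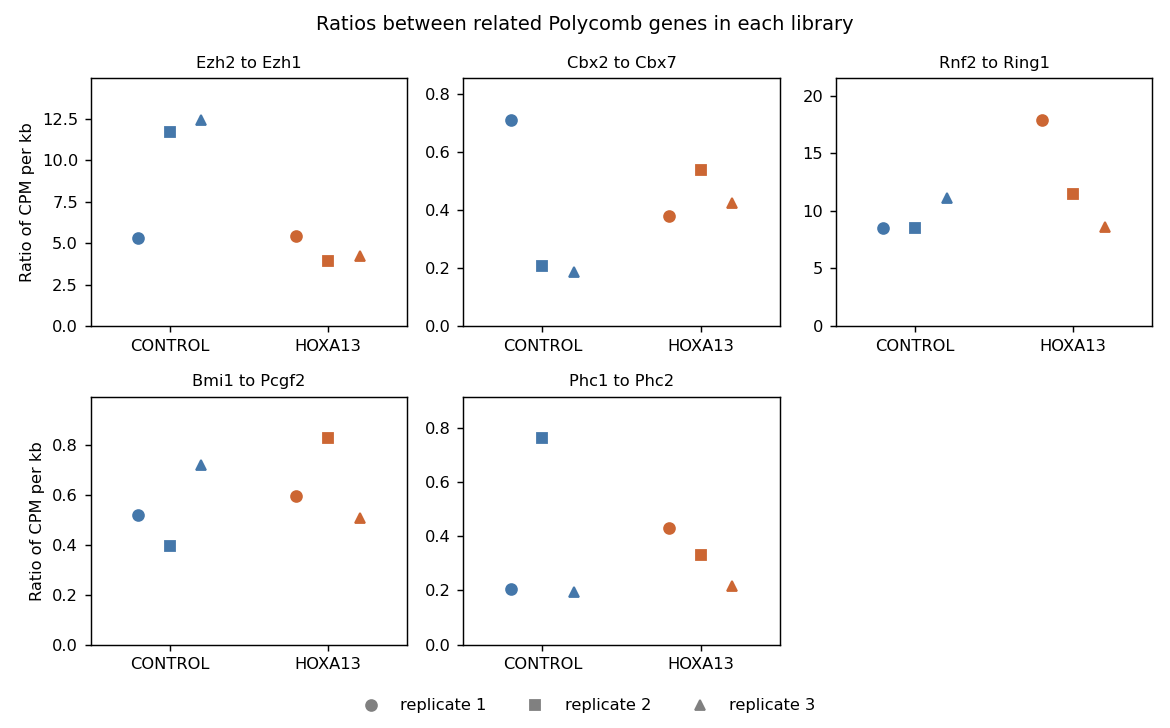
Ratios of related Polycomb genes (CPM per kb of transcript, vertical axes from 0) in each CONTROL and HOXA13 library, with replicates as symbols. The groups overlap in every ratio shown, and CONTROL replicate 1 lies with the HOXA13 libraries for Ezh2 to Ezh1.

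Among the PRC1 genes, Rnf2, the catalytic subunit of most PRC1 complexes, lies at chr1:153316536-153347953 on the minus strand. It was at 145, 124 and 148 CPM in CONTROL against 228, 226 and 228 CPM in HOXA13. The groups were far apart and the HOXA13 libraries nearly equal, with means of 139 ± 13.0 and 227 ± 1.56 CPM (SD, n = 3). The log2 fold change was 0.71 (SE 0.14), with an unadjusted p of 0.00115 and an adjusted p of 0.0954 in edgeR's quasi-likelihood test. DESeq2 gave 0.69 (adjusted p = 0.00517), limma voom 0.65 (adjusted p = 0.00570) and edgeR without CONTROL 2 0.62 (adjusted p = 0.0195). Rnf2 shares its chromosome with the 470 genes whose median log2 fold change was 0.53, and with the chromosome medians removed its log2 fold change was 0.13 (adjusted p = 0.751). Its paralogue Ring1 was at 11.4, 9.75 and 8.92 CPM in CONTROL against 8.53, 13.2 and 17.9 CPM in HOXA13, and the per-kilobase ratio of Rnf2 to Ring1 was between 8.50 and 17.9 with overlapping groups (log2 difference 0.38, exact p = 0.2, adjusted p = 0.4, and 0.09 without HOXA13 1 or 0.62 without HOXA13 3).

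Bmi1 (Pcgf4), the Pcgf partner of Rnf2 that represses the Cdkn2a locus, lies at chr2:18598645-18608256 on the plus strand. It was at 38.6, 35.9 and 38.0 CPM in CONTROL against 33.1, 46.9 and 31.2 CPM in HOXA13. The CONTROL libraries were close together and lay between the highest and lowest HOXA13 libraries, so that the log2 fold change was -0.02 (SE 0.22, adjusted p = 0.987). Its sign turned to 0.02 with chromosome medians removed, 0.05 without HOXA13 1 and 0.08 without HOXA13 3. The ratio of Bmi1 to Pcgf2 (Mel18), the other canonical Pcgf gene, ran from 0.394 to 0.723 in CONTROL and from 0.507 to 0.829 in HOXA13 (log2 difference 0.25, exact p = 0.5, adjusted p = 0.6, and from 0.04 without CONTROL 2 to 0.48 without CONTROL 3). Cdkn2a itself, which encodes a pair of cell cycle inhibitors, was at 188, 111 and 209 CPM in CONTROL against 78.8, 119 and 108 CPM in HOXA13 (log2 fold change -0.73, adjusted p = 0.272), and it is named outside the rule for named genes.

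Cbx2 and Cbx7 read the methyl mark for PRC1, Cbx7 being the main reader in undifferentiated stem cells and Cbx2 one that gains weight as cells differentiate. Cbx7 lies at chr15:79746237-79801549 on the minus strand. It was at 46.4, 166 and 99.0 CPM in CONTROL against 62.1, 34.4 and 49.8 CPM in HOXA13. CONTROL 2 and 3 were above every HOXA13 library, but CONTROL 1 lay among them. With means of 104 ± 60.1 and 48.8 ± 13.9 CPM, the log2 fold change of -1.09 (SE 0.43) had an unadjusted p of 0.0359 and an adjusted p of 0.311. Without CONTROL 2 it was -0.60 (adjusted p = 0.282). Cbx7 varied most of the 10 genes, with 4.83-fold between its highest and lowest library. The genes most like it were Snord96a (r = 0.996), Clk3 (r = 0.982) and Rab24 (r = 0.979), by the same measure as for Jarid2.

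Cbx2 lies at chr11:118884276-118892584 on the plus strand. It was at 37.1, 38.6 and 20.7 CPM in CONTROL against 26.4, 20.8 and 23.6 CPM in HOXA13. CONTROL 1 and 2 were above the HOXA13 libraries, and CONTROL 3 was level with the lowest of them, HOXA13 2. The log2 fold change was -0.44 (SE 0.28, adjusted p = 0.546), and -0.70 without CONTROL 3. With the chromosome medians removed it was -0.30 (adjusted p = 0.736). Per kilobase, the ratio of Cbx2 to Cbx7 was 0.712, 0.207 and 0.186 in CONTROL against 0.379, 0.539 and 0.423 in HOXA13 (log2 difference 0.55, exact p = 0.4, adjusted p = 0.6). This difference was 1.17 without CONTROL 1, 0.28 without CONTROL 2 and 0.20 without CONTROL 3.

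Among the other readers Cbx6 had the opposite sign to Cbx2 and Cbx7, at 76.4, 107 and 65.5 CPM in CONTROL against 165, 104 and 137 CPM in HOXA13 (log2 fold change 0.70, adjusted p = 0.251), and it is named here after its values were seen.

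Phc1, a polyhomeotic subunit that lets PRC1 complexes polymerise, lies at chr6:122267749-122290579 on the minus strand. It was at 45.7, 111 and 47.8 CPM in CONTROL against 71.8, 48.4 and 35.3 CPM in HOXA13. CONTROL 2 and HOXA13 1 were again the highest, as for Jarid2 and the pluripotency markers, and the groups overlapped. The log2 fold change was -0.40 (SE 0.40, adjusted p = 0.735), and without CONTROL 2 it was 0.13. The ratio of Phc1 to Phc2 was between 0.194 and 0.764 in CONTROL and between 0.216 and 0.433 in HOXA13, with a log2 difference of 0.0037 (exact p = 1). Leaving out a library moved this difference from -0.34 without CONTROL 3 to 0.65 without CONTROL 2, and it was below 0 in 4 of 6 such fits.

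Per kilobase, Rnf2 had the highest mean of the PRC1 members, at 75.1 ± 0.515 CPM per kb in HOXA13 and 46.0 ± 4.29 CPM per kb in CONTROL. In CONTROL 2, however, Cbx7 (49.1 CPM per kb) was above Rnf2 (41.1 CPM per kb). Cbx7 followed with 30.7 ± 17.7 CPM per kb in CONTROL and 14.4 ± 4.10 in HOXA13, and Phc1 with 16.2 ± 8.87 and 12.3 ± 4.39. Bmi1 was at 10.4 ± 0.394 and 10.3 ± 2.38 CPM per kb and Cbx2 at 8.44 ± 2.61 and 6.21 ± 0.741. Judged by the larger SD of each pair, the means of Cbx7 and Phc1 were not apart in either group, nor were those of Phc1 and Bmi1. In CONTROL the same held for Rnf2 and Cbx7, for Phc1 and Cbx2 and for Bmi1 and Cbx2, and in HOXA13 for Cbx7 and Bmi1.

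The members varied more between CONTROL than between HOXA13 libraries. The SD of log2 CPM was larger in CONTROL for 9 of the 10 genes, where Bmi1 was the exception, and for 65.9% of all tested genes. The median SD of the members was 0.39 in CONTROL and 0.19 in HOXA13, and the median over all tested genes was 0.41 and 0.27. In the CONTROL group the SD was 1.04 for Jarid2, 0.93 for Cbx7 and 0.72 for Phc1, and 0.05 for Bmi1 and 0.14 for Rnf2.

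**Figure D3:**
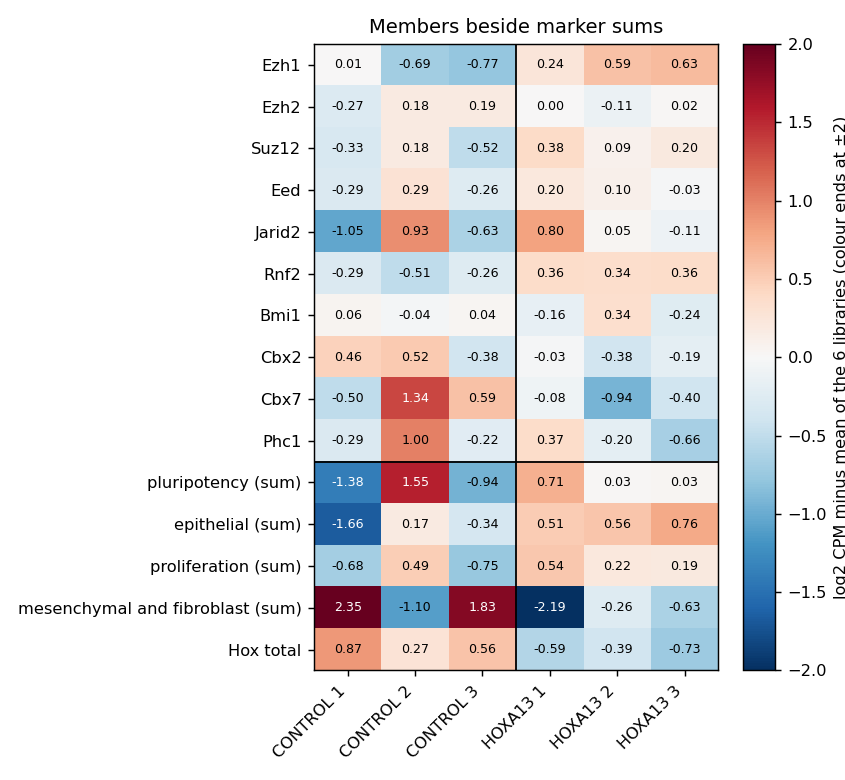
log2 CPM of each member, of summed marker lists and of the endogenous Hox total, minus the mean of the 6 libraries (columns), with the value in each cell. Jarid2 and Phc1 have their highest values, 0.93 and 1.00, in CONTROL 2, where the pluripotency sum is at 1.55, and their second highest in HOXA13 1.

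Marker sums moved with the libraries as well as with the groups. The sum of 12 epithelial markers was 2170, 7750 and 5428 CPM in CONTROL against 9784, 10136 and 11634 CPM in HOXA13, and all 12 of those genes had a log2 fold change above 0. The sum of 14 proliferation markers was 1131, 2537 and 1073 CPM in CONTROL against 2631, 2102 and 2067 CPM in HOXA13. For proliferation, CONTROL 1 and 3 stood below the other 4 libraries, as they did for Suz12, Eed and Jarid2. For the 10 mesonephric genes that could mark M15 cells the sum was 53.2 to 74.3 CPM in CONTROL and 29.4 to 65.7 CPM in HOXA13. The cells were sorted for E-cadherin and CXCR4 and then cultured for a further day. The part of other cells in the levels of the Polycomb genes was not tested.

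Of 34 further Polycomb genes, 33 were tested and none passed in either direction (edgeR, 5 at an unadjusted p under 0.05). Their median log2 fold change was 0.05, with 17 above and 16 below 0. DESeq2 called none of these 33. Limma voom called Aebp2, Asxl1 and Cbx6 higher and Auts2, Asxl3 and Phc2 lower, or 6 of 33, where it called 15.4% of all genes. Among the genes named by rule, Aebp2, a PRC2 accessory subunit, was at 161, 164 and 208 CPM in CONTROL against 227, 290 and 337 CPM in HOXA13 (log2 fold change 0.68, adjusted p = 0.178). The groups of Aebp2 did not overlap. Auts2, a partner of Pcgf3 and Pcgf5 in non-canonical PRC1, was at 28.3, 16.2 and 24.5 CPM in CONTROL against 14.7, 8.03 and 9.52 CPM in HOXA13 (-1.10, adjusted p = 0.205). Asxl3, a cofactor of the deubiquitinase Bap1, was at 8.79, 6.40 and 9.30 CPM in CONTROL against 3.00, 3.69 and 2.55 CPM in HOXA13 (-1.40, adjusted p = 0.199).

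Genes that oppose Polycomb numbered 13, of which 12 were tested, 11 had a log2 fold change above 0 and none passed (edgeR, 1 at an unadjusted p under 0.05). Their median was 0.15. Rbbp5, a subunit of the lysine 4 methyltransferases, was at 59.7, 62.8 and 59.8 CPM in CONTROL against 108, 110 and 103 CPM in HOXA13 (log2 fold change 0.82, SE 0.14, adjusted p = 0.0750). DESeq2 (adjusted p = 0.00133) and limma voom (adjusted p = 0.00387) called it. Like Rnf2 it lies on chromosome 1, and with the chromosome medians removed its log2 fold change was 0.24 (adjusted p = 0.551). Uty, the Y-linked relative of the demethylase Kdm6a, which is also named outside that rule, failed the filter with 27, 0 and 236 counts in CONTROL against 0, 8 and 4 counts in HOXA13. Without CONTROL 2, Uty was tested and edgeR called it (log2 fold change -5.28, adjusted p = 0.0195). That fit also called Rbbp5 and Ash2l (0.51, adjusted p = 0.0461), the latter named outside the rule too, among 14.2% of all genes.

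**Figure D4:**
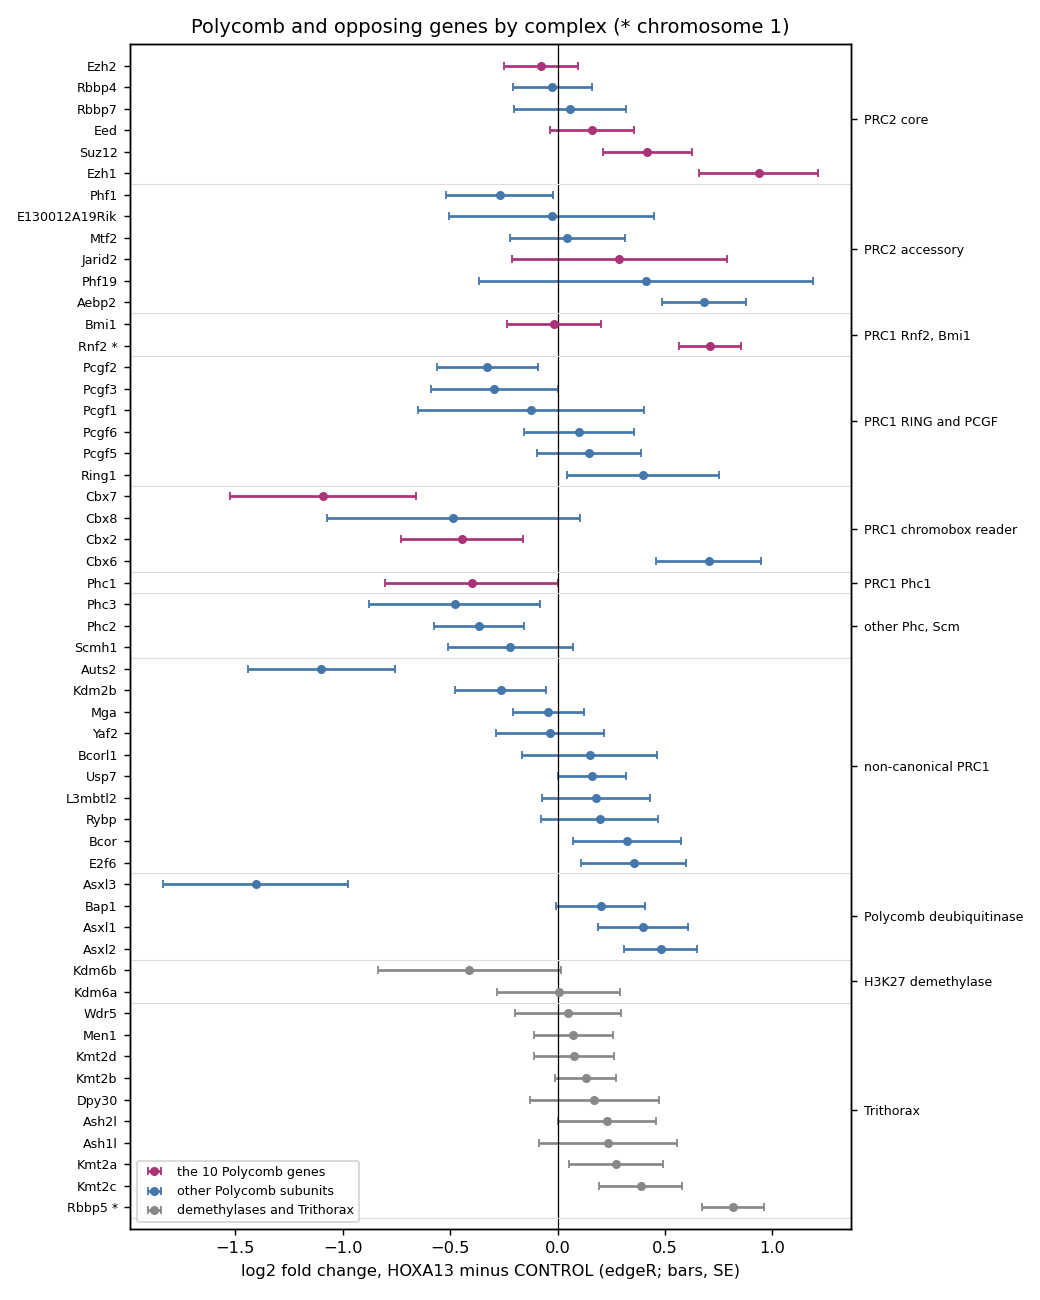
log2 fold change of HOXA13 against CONTROL with its SE (horizontal axis, edgeR) for the 10 Polycomb genes, further Polycomb genes and 12 genes that oppose them, grouped by complex. The 10 genes run from -1.09 (Cbx7) to 0.94 (Ezh1), and the genes of chromosome 1, Rnf2 and Rbbp5, stand at 0.71 and 0.82.

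Of 16 classic Polycomb targets outside the Hox clusters, 12 were tested and none passed (edgeR, 3 at an unadjusted p under 0.05), with a median log2 fold change of -0.76. Pax3 was at 17.8, 7.76 and 24.2 CPM in CONTROL against 3.30, 7.50 and 4.85 CPM in HOXA13 (-1.66, adjusted p = 0.194). The summed mesenchymal and fibroblast markers also had a lower mean in HOXA13, with CONTROL 2 (831 CPM) below the other CONTROL libraries (9091 and 6337 CPM). Their part in the levels of these targets was not tested.

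The Hox genes are the targets against which the members were set. The 39 mouse Hox rows, in which Hoxa13 had at most 10 counts, summed to 417, 274 and 337 CPM in CONTROL against 151, 174 and 137 CPM in HOXA13. Every HOXA13 library was below every CONTROL library. The means were 343 ± 71.6 and 154 ± 18.6 CPM (SD, n = 3), a log2 difference of -1.14 (exact permutation test, two-sided, p = 0.1, the smallest value possible), and 21.1% of all Hox counts came from Hoxb9. The mesenchymal and fibroblast markers differed in the same direction, with 9091, 831 and 6337 CPM in CONTROL against 391, 1489 and 1150 CPM in HOXA13, and within CONTROL they had the order of the Hox total. Their part in the Hox total was not tested. Of 33 Hox genes tested none passed (edgeR, 9 at an unadjusted p under 0.05), 27 had a log2 fold change below 0 and 11 had every HOXA13 library below every CONTROL library, where 8.52% of all genes did.

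Since the Hox total separated the groups, no correlation over the 6 libraries is given, and the members were compared with it as deviations from their group means. Within CONTROL the total was highest in replicate 1, then 3, then 2, and within HOXA13 highest in replicate 2, then 1, then 3. Bmi1 had the order of the Hox total in both groups, and it was the only member that did so (r = 0.61, rho = 0.77, exact permutation p = 0.0278 for each). That p is the smallest that the 36 permutations within groups can give, and after adjustment over the 10 members it was 0.278, which is not past the threshold. This order was not resolved by the counts. The exact 95% Poisson intervals of Bmi1 overlapped between all 3 CONTROL libraries (35.4 to 42.0, 32.7 to 39.4 and 34.8 to 41.5 CPM in replicates 1, 2 and 3) and between HOXA13 1 and 3 (30.1 to 36.4 and 28.6 to 34.0 CPM), and that of HOXA13 2 (43.7 to 50.3 CPM) lay above both. CONTROL 1 and 2 had the largest deviations of the Hox total from their group mean, and without them 1 CONTROL library is left, so that no r without them is given.

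Cbx7 (r = -0.93, rho = -0.83) and Ezh2 (r = -0.85, rho = -0.66) had the most negative values, each with an exact permutation p for r of 0.0833 and an adjusted p of 0.278. For rho the exact p was 0.139 for Cbx7 and 0.333 for Ezh2, and the adjusted p was 0.556 for both. In CONTROL, Eed, Jarid2, Phc1 and Cbx7 had the reverse order of the Hox total, and in HOXA13 only Ezh2 did. For Jarid2 r was -0.73 (exact permutation p = 0.278, adjusted p = 0.521). The mesenchymal and fibroblast markers were at 9091 CPM in CONTROL 1 and 831 CPM in CONTROL 2, and the mesonephric markers at 74.3 and 53.2 CPM. Their part in these relations was not tested.

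**Figure D5:**
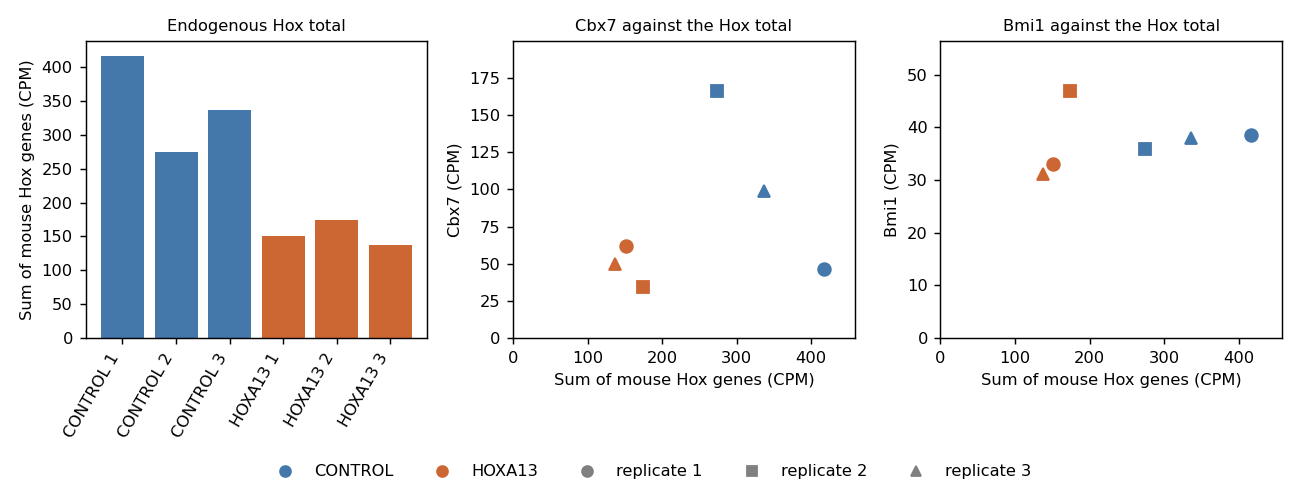
Summed CPM of the mouse Hox genes in each library (bars from 0), and CPM of Cbx7 and Bmi1 against that sum, with CONTROL in blue, HOXA13 in orange and replicates as symbols. The Hox sum is 274 to 417 CPM in CONTROL and 137 to 174 CPM in HOXA13, and in each group Bmi1 has the order of the Hox sum, with only HOXA13 2 apart from its group beyond counting error.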

How the data were processed

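The authors made stranded poly-A libraries and deposited raw read counts per gene symbol for each of the 6 samples. Per the labels, the reads were aligned to mm9 with TopHat2 2.0.14 and counted with HTSeq 0.6.1p1. Which annotation and strand setting were used, and how multiply aligned reads were handled, is not given in the sources used here. Groups and replicate numbers came from the sample titles. The cultures are called biological replicates, but each p-value measures only the spread between these libraries.

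The group test was edgeR 4.0.16 under R 4.3.3 (filterByExpr, minimum count 10 and total 15, TMM scaling, quasi-likelihood test over all 6 libraries, Benjamini-Hochberg adjustment over 13600 genes, threshold 0.05). DESeq2 1.42.0 and limma 3.58.1 (voom) were alternatives. Values in CPM are TMM-normalised, and logarithms and ratios used a pseudocount of 0.5. Gene positions and lengths are those of GENCODE M1 (mm9). Only genes averaging 16 CPM or more entered the chromosome medians. Ratios and the Hox total were compared by exact permutation. The planned correlation over all 6 libraries was replaced by one within groups. Named genes are all members, the gene of each further group that passed or, where none did, the one with the largest non-overlapping change, and the 3 genes most like each of the 2 most variable members. Some genes named outside this rule are marked so in the text. Paralogues used in ratios, single markers, Hox genes, antisense genes and genes called only by other tools are not marked. The members and lists were chosen with earlier results of these data known. Only the edgeR and DESeq2 fits were run on simulated counts, of 13600 genes with 200 changed. There edgeR called 10.3% of genes changed 2-fold and 56.3% of those changed 4-fold, and 12.8% of its calls were unchanged genes. For DESeq2 these values were 25.8%, 70.9% and 32.9%. One further gene and the ratio that used it are not reported here.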

Additional observations from a re-analysis of the deposited data

How the results depend on the processing

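The count of genes called was 42 in the reported test, 722 with DESeq2, 2101 with limma voom, 106 with the newer edgeR method, 163 without the filter, 9 among genes averaging 50 counts or more, 1 with chromosome medians removed, and 0 to 2006 when each library was left out in turn. The 2006 came without CONTROL 2. Members called numbered 0 in the reported test, 1 with DESeq2, 3 with limma voom and 0 to 3 on leaving out a library. For the further Polycomb and opposing genes together the count was 0, then 1, 7 and 0 to 8. With the replicate number as a block 0 genes were called (1392 at an unadjusted p under 0.05), and no member was. Same-numbered libraries did not deviate together (mean r = -0.12, from -0.25 to 0.08). With 3 libraries in each group this cannot exclude a pairing by number.

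Across 15 alternatives the direction held for 7 members. It turned for Bmi1 (0.016 with chromosome medians removed, and -0.25 to 0.076 on leaving out a library, with 0.047 without HOXA13 1 and 0.076 without HOXA13 3), for Jarid2 (-0.074 to 1.11, with -0.059 without HOXA13 1) and for Phc1 (-0.72 to 0.13). On leaving out a library the others ran from 0.78 to 1.21 for Ezh1, -0.23 to -0.02 for Ezh2, 0.26 to 0.63 for Suz12, 0.03 to 0.36 for Eed, -0.70 to -0.31 for Cbx2, -1.47 to -0.60 for Cbx7 and 0.62 to 0.74 for Rnf2. The log2 differences of the ratios ran from -1.43 to -0.81 for Ezh2 to Ezh1, 0.20 to 1.17 for Cbx2 to Cbx7, 0.09 to 0.62 for Rnf2 to Ring1, 0.04 to 0.48 for Bmi1 to Pcgf2 and -0.34 to 0.65 for Phc1 to Phc2, and that of the Hox total from -1.29 to -0.98. The causes were not tested. Every member had at least 198 counts in each library.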
